A study of Homo sapiens with 6 samples.

Results

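The genes described here are 31 human genes that encode apolipoproteins and the proteins that assemble, remodel and take up lipoproteins. They were chosen by name: a gene was taken when its symbol was on a list of 31 symbols, and all 31 were found among the 20026 genes of the deposited table. RNA-seq was done on HepG2, a human liver cancer cell line, in 3 groups of 2 libraries each, to learn which genes change when the gene of miR-23a or miR-27a is edited. Scr cells, labelled WT, received the PX458 plasmid for Cas9 and GFP with no targeting sequence. KO cells received that plasmid with a pair of guides on either side of the respective mature miRNA. KO colonies were grown after single-cell sorting for GFP. The study describes more than 1 clone of each KO, and the labels give neither the clone nor the culture of a library. The p-values below therefore measure only the spread between these libraries. The series design mentions cells sorted by the activity of these miRNAs, a step that no sample label describes. Where the wording of a label departed from the sample title, the title was taken. The group of a library rests on that title alone, because the edited miRNA genes were left out. Both miRNAs are cut from the same primary transcript, and mature miRNA levels were not analysed here, so a KO group is not taken to lack its named miRNA alone.

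The deposited values were read as estimated counts, and their totals were 14891239 and 14405250 in Scr, 16515261 and 15930779 with miR-23a KO, and 15850589 and 15947308 with miR-27a KO. Values in CPM, the usual unit for counts relative to the library total, include the TMM scaling factor. A level per length is CPM per kilobase of transcript. A gene was called when edgeR gave a fitted fold change over 1.5 and a Benjamini-Hochberg adjusted p under 0.05 over all genes tested. Standard errors (SE) of fitted values and standard deviations (SD) of levels come from 2 libraries per group. RNA was measured in bulk, so fewer cells of a type and less RNA per cell cannot be told apart.

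Lipoproteins carry cholesterol esters and triglycerides through blood inside a shell of phospholipid and apolipoproteins. Hepatocytes load lipid onto apoB with the microsomal triglyceride transfer protein to secrete very-low-density lipoprotein, and they secrete apoA-I and apoA-II for high-density lipoprotein (HDL). In plasma, lipases and lipid transfer proteins remodel the particles, and receptors on liver and other cells take them up.

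The mature miRNAs targeted in the KO groups are shown first, because matches to their seeds are the way a miRNA is known to reach a transcript. Both were found in RefSeq (GRCh38.p14) on the minus strand of chromosome 19, miR-23a-3p at chr19:13836595-13836615 and miR-27a-3p at chr19:13836447-13836467. Capitals mark the seed, bases 2 to 8, and the seeds of these miRNAs differ.
hsa-miR-23a-3p: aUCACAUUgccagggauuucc
hsa-miR-27a-3p: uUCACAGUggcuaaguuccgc

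In GENCODE release 29, the longest 3'-UTR annotated for a gene was searched for the 7 bases that pair with a seed, AATGTGA for miR-23a-3p and ACTGTGA for miR-27a-3p. A miR-27a-3p match was present in 3 of the 31 genes, or 9.68%, beside 16.6% of 15911 genes with a 3'-UTR. A miR-23a-3p match was present in 3 of the 31, also 9.68%, beside 19.3%. The median 3'-UTR was 320 bases long in the lipoprotein genes and 1210 bases over all these genes. *VLDLR*, which encodes a receptor for triglyceride-rich particles, held 3 miR-27a-3p matches, a number that only 0.578% of genes reached, in a 3'-UTR of 6185 bases, longer than most. Its matches lay at chr9:2654908-2654914, chr9:2655150-2655156 and chr9:2658649-2658655 on the plus strand. The paraoxonase genes *PON3* (chr7:95359980-95359986, minus strand) and *PON2* (chr7:95404970-95404976, minus strand) held 1 each. A miR-23a-3p match was found in *PON2*, in *LIPG* and in *SORT1*, the last at chr1:109312478-109312484 on the minus strand. Capitals mark the match in each sequence, read from the GENCODE transcript on the strand of the gene. Positions are those of the genome (GRCh38).
VLDLR, the first match: tagactgtcttACTGTGAagatggccagg
VLDLR, the second match: accaccgttttACTGTGActtcatgaaga
VLDLR, the third match: gggactgtctcACTGTGAcaaggtaagat
PON3: caaaactctgtACTGTGAgctctagactc
PON2, match to miR-27a-3p: tcacttctggcACTGTGActactatggct
SORT1, match to miR-23a-3p: actttagtcagAATGTGAgcagatggcta

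The libraries of a group differed in how close they lay to each other, and this sets what each comparison can show. Of the members with at least 40 counts over a pair, 18 of 28 were more than 2-fold apart between the miR-23a KO libraries, beside 47.8% of all such genes. In Scr this held for 3 of 28 members, beside 6.65% of genes, and in miR-27a KO for 0 of 25, beside 1.35%. The median squared deviation between libraries was 1607 times the sampling noise of counts for members in miR-23a KO, 82.8 times in Scr and 2.58 times in miR-27a KO. Over all genes it was 122, 12.1 and 1.81 times. For the same fold difference this measure grows with the count, and some members are among the most abundant genes. The median absolute log2 ratio between libraries was 1.74 in miR-23a KO, 0.348 in Scr and 0.052 in miR-27a KO for members. Over all genes that ratio was 0.957, 0.262 and 0.087. The miR-27a KO libraries were thus by far the closest pair, and the labels do not say whether they came from separate cultures. The adjusted p-values of that group rest on this closeness.

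The differences within the miR-23a KO pair went with transcript length and base composition. Short apolipoprotein transcripts were higher in replicate 1, as *APOC3* with 7603 counts beside 1757 in replicate 2. Several of the longest transcripts were higher in replicate 2, as *APOB* with 13515 counts in replicate 1 and 71047 in replicate 2. *VLDLR*, of 6202 bases, had a log2 ratio of -0.005. *CLU*, of 3080 bases, and *SCARB1*, of 2970, were higher in replicate 1. Across the 28 members, the log2 ratio of replicate 1 to replicate 2 had a Spearman correlation of -0.599 with transcript length and of 0.435 with GC content. Over 12169 genes these correlations were -0.483 and 0.707. The Scr pair followed the same trends less strongly over 12149 genes, with -0.217 for length and 0.492 for GC content, and the miR-27a KO pair hardly, with 0.023 and 0.108 over 12105 genes. Among the members alone, length and GC content had correlations of 0.056 and 0.242 in Scr and of 0.085 and 0.276 in miR-27a KO. Each correlation is across genes that share the same 2 libraries, and genes are not independent replicates. *CLU* was the member farthest apart, with 1813 counts in replicate 1 and 37 in replicate 2. The plot of library differences against length shows all 3 groups.

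**Figure D1:**
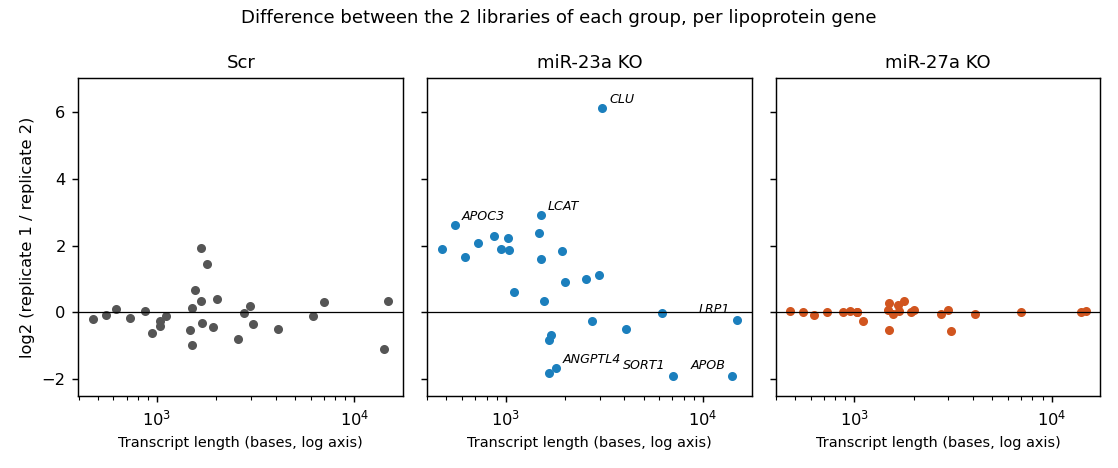
Log2 ratio of replicate 1 to replicate 2 (y axis, TMM-scaled CPM) against transcript length in bases (x axis, log scale) for each lipoprotein gene with enough counts, 1 panel per group. In miR-23a KO the shortest transcripts lie above 0 and the longest at or below it, and in miR-27a KO the points lie close to 0.

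The cells carried hepatocyte markers in every library. All 10 hepatocyte markers were measured, and their summed level was 33400 and 37220 CPM in Scr, 33890 and 31780 with miR-23a KO, and 27530 and 27470 with miR-27a KO. The most abundant was *ALB* in replicate 2 of Scr and of miR-23a KO, and *SERPINA1* in the other 4 libraries. In miR-27a KO, 1 of the 10 was called higher and 3 lower. *ALB* had a fitted log2 fold change of -2.59 (adjusted p = 0.00538), *AFP* of -4.11 (adjusted p = 0.00262), *FGB* of -2.05 (adjusted p = 0.0212) and *TF* of 1.25 (adjusted p = 0.0212), by edgeR with Benjamini-Hochberg adjustment. The hepatocyte transcription factor *HNF4A* had a log2 fold change of 0.24 there and was not called. These markers moved in the same libraries as the lipoprotein genes described next, and their part in those results was not tested.

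Markers of other cell types were read as well. The leukocyte marker *PTPRC* and the fibroblast marker *COL1A1* had at most 2 counts in any library, and the adipocyte marker *ADIPOQ* and the endothelial marker *TEK* at most 1. In miR-27a KO, *PDGFRB* of the 2 measured fibroblast markers was lower by the test (log2 fold change -2.12), with summed levels of 17.5 and 29.3 CPM in Scr, 29.8 and 19.7 with miR-23a KO, and 5.75 and 5.12 with miR-27a KO. Of the 4 measured enterocyte markers, *CDX2* was called lower (log2 fold change -4.27), while *VIL1* held most of a summed level of 430 and 465 CPM in Scr, 328 and 304 with miR-23a KO, and 462 and 452 with miR-27a KO. Of the 5 cholangiocyte markers, *EPCAM* was called higher (log2 fold change 1.33). That list summed to 454 and 451 CPM in Scr, 333 and 248 with miR-23a KO, and 559 and 566 with miR-27a KO, with *KRT19* on top in Scr and *KRT7* at 6 counts or fewer. *CIDEC*, the most abundant of the 4 measured adipocyte markers, was called lower (log2 fold change -1.01) in a list that summed to 31.8 and 44.7 CPM in Scr, 71.3 and 13.3 with miR-23a KO, and 20.0 and 17.6 with miR-27a KO. Among the endothelial and leukocyte lists 0 genes were called by edgeR and 0 by DESeq2 in miR-27a KO, and only the leukocyte marker *CD68* had an unadjusted p under 0.05. Its adjusted p was 0.0166 in edgeR with Benjamini-Hochberg adjustment, and it was not called because its log2 fold change of -0.58 stayed just short of 1.5-fold. The 5 leukocyte markers, with *CD68* on top, summed to 168 and 157 CPM in Scr, 140 and 72.6 with miR-23a KO, and 113 and 109 with miR-27a KO. The part of these markers in the lipoprotein results was not tested.

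In Scr cells apolipoproteins of HDL and of triglyceride-rich particles held ranks 1 to 6 among the members by level per length. *ANGPTL8* and *SCARB1* held ranks 7 and 8, ahead of *APOB* at rank 9. *APOA2*, an apolipoprotein of HDL, reached a level per length of 6080 ± 550 CPM per kb (SD, n = 2), rank 2 of the 17620 genes with a length. *APOE*, the ligand for clearance of remnant particles, stood at 1930 ± 237 CPM per kb (SD, n = 2) and rank 18. *APOA1*, the main protein of HDL, stood at 1315 ± 255 CPM per kb (SD, n = 2) and rank 35. The activator of lipoprotein lipase *APOC2* and its inhibitor *APOC3* followed at 572 ± 45.6 and 334 ± 13.1 CPM per kb (SD, n = 2). At the other end of the 28 tested members, *VLDLR* had 1.87 and the paraoxonase *PON1* 2.30 CPM per kb. The plot of levels gives every tested member in each library.

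The 31 genes took 0.967% (95% exact Clopper-Pearson interval 0.962 to 0.972) and 1.28% (1.27 to 1.29) of all counts in Scr. They took 1.35% (1.34 to 1.35) and 1.00% (0.997 to 1.01) in miR-23a KO, and 0.982% (0.977 to 0.987) and 0.971% (0.966 to 0.976) in miR-27a KO. These intervals cover counting error only. The miR-27a KO values lay near the lower Scr value, and 1 of the miR-23a KO values lay above both Scr values. *APOC4*, *LPA* and *LIPG* were removed by the filter on low counts, and the other 28 members were tested in every comparison. *APOC4* had at most 10 counts in a library and *LIPG* at most 8. *LPA*, the apolipoprotein of Lp(a), had 3 counts in a miR-23a KO library and 0 in the other 5, which allows up to 0.209 and 0.203 CPM in the Scr libraries (3 counts each).

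**Figure D2:**
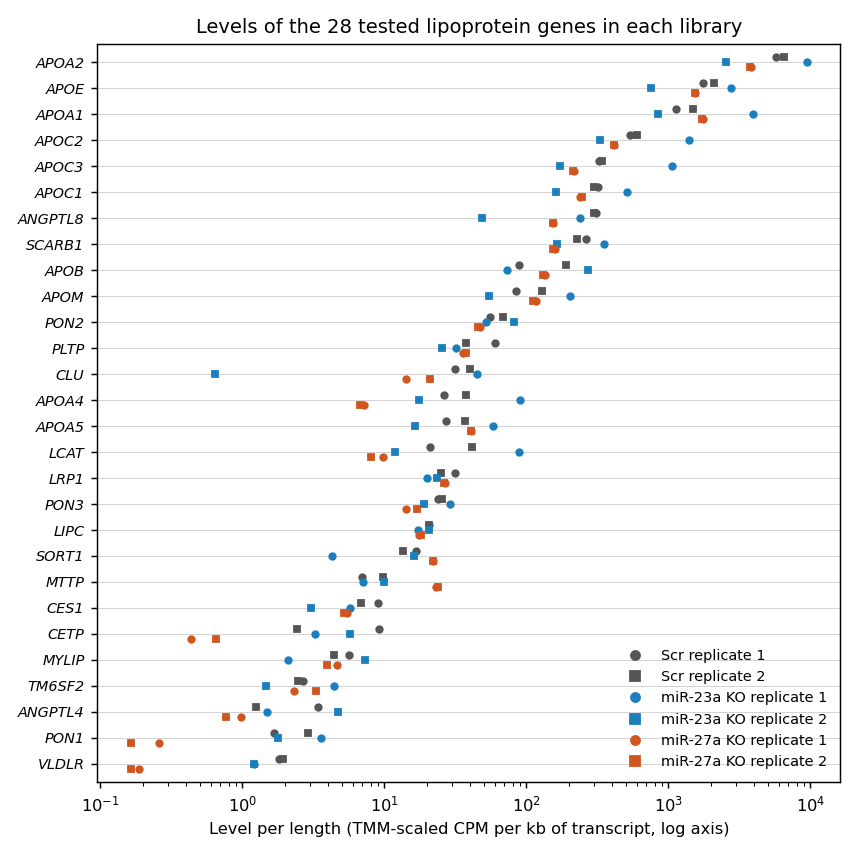
Level per length (x axis, TMM-scaled CPM per kb of transcript, log scale) of the 28 tested lipoprotein genes in each of the 6 libraries, ordered by the mean of Scr. *APOA2* leads in Scr with 6080 CPM per kb and *VLDLR* is last with 1.87.

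In miR-27a KO cells, 11 of the 28 tested lipoprotein genes were down-regulated and 1, *MTTP*, was up-regulated. Among all 13820 genes tested, 6.74% were called lower and 3.52% higher. The members were chosen with earlier results of these data known, so these shares do not test an excess among them. The genes that fell encode apolipoproteins and proteins of plasma lipid transfer, receptor uptake, lipase inhibition and HDL protection, and the gene that rose loads lipid onto apoB. The fitted value was below 0 for 22 of the 28 members and above 0 for 6, while 50.9% of all genes tested were above 0. The median log2 fold change of the members was -0.45, beside 0.01 over all genes tested. For 19 members both miR-27a KO libraries were under both from Scr (31.9% of all genes tested), and for 4 they were over both (32.4%).

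At an unadjusted p under 0.05, 19 members passed (16 lower and 3 higher), beside 32.2% of all genes. At the study's adjusted p of 0.001, 0 members passed in edgeR, where 4 genes in all did (0.0289%). DESeq2 called 11 of the 30 members it tested at that threshold, beside 4.35% of all genes. SE of the members' fitted log2 fold changes ran from 0.08 to 0.74. The plot of fitted changes sets both KO groups side by side by role.

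**Figure D3:**
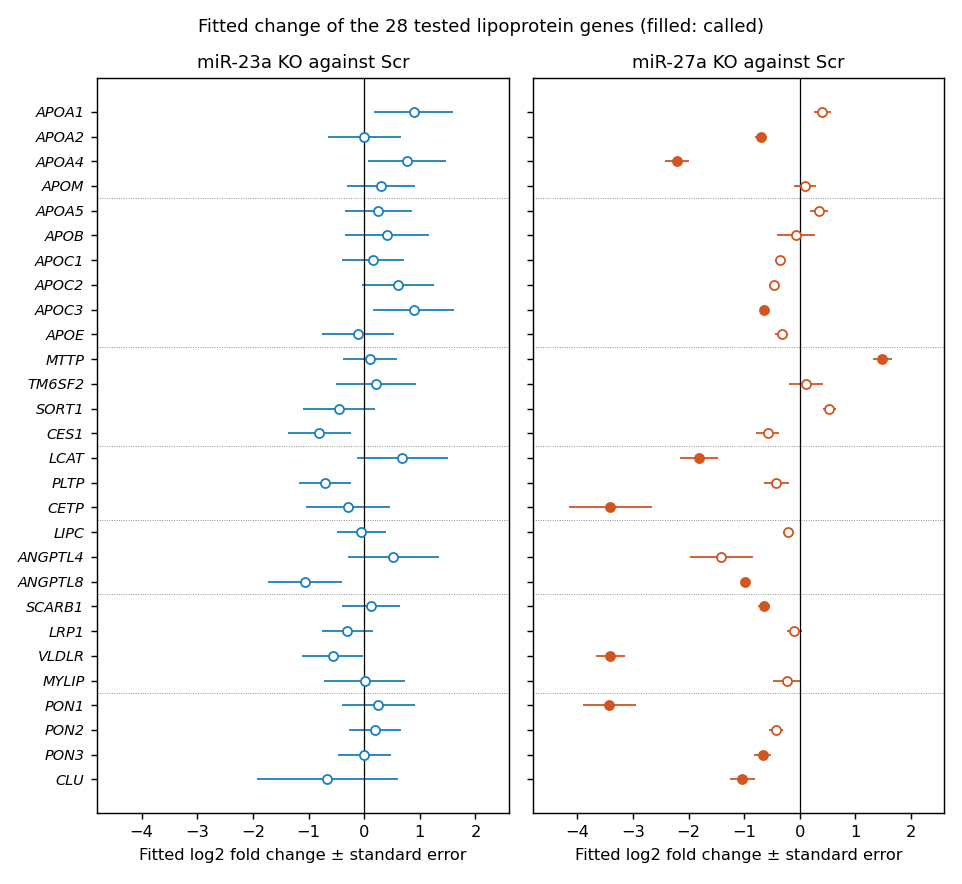
Fitted log2 fold change against Scr with its standard error (x axis) for the 28 tested lipoprotein genes, grouped by role, in miR-23a KO (left) and miR-27a KO (right), 2 libraries per group. Filled points were called: 0 in miR-23a KO, and 1 higher and 11 lower in miR-27a KO.

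Among the 4 HDL apolipoproteins, 2 fell in miR-27a KO. *APOA4* (gene 337), an apolipoprotein of chylomicrons and HDL, had 557 and 825 counts in Scr, 1745 and 478 with miR-23a KO, and 174 and 166 with miR-27a KO. Both miR-27a KO libraries lay below every library of the other groups. The fall from Scr was 4.61-fold (log2 fold change -2.20, SE 0.21, adjusted p = 0.00784, edgeR with Benjamini-Hochberg adjustment). *APOA2* (gene 336) had 38803 and 45391 counts in Scr, 58626 and 22418 with miR-23a KO, and 29764 and 29326 with miR-27a KO. Its miR-27a KO libraries lay below both Scr libraries and between the miR-23a KO libraries. It fell 1.62-fold (log2 fold change -0.70, SE 0.10, adjusted p = 0.0189, edgeR with Benjamini-Hochberg adjustment).

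*APOA1* (gene 335) did not pass the test. It had 16856 and 22869 counts in Scr, 53772 and 16292 with miR-23a KO, and 29989 and 29795 with miR-27a KO. In miR-27a KO both libraries were higher than Scr and lay inside the miR-23a KO pair. Its log2 fold change in miR-27a KO was 0.41 (SE 0.15, adjusted p = 0.131, edgeR with Benjamini-Hochberg adjustment). *APOM*, a carrier of sphingosine phosphate on HDL, had a log2 fold change of 0.09. *APOA1*, *APOC3*, *APOA4* and *APOA5* lie within 48.6 kb of chromosome 11 (chr11:116789367-116837950), and in miR-27a KO the fitted values of these neighbours ran from -2.20 to 0.41.

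Of the 6 tested apolipoproteins of triglyceride-rich particles, 1 fell. *APOC3* (gene 345), which slows the breakdown and uptake of these particles, had 2568 and 2794 counts in Scr, 7603 and 1757 with miR-23a KO, and 1950 and 1960 with miR-27a KO. Its miR-27a KO libraries were under both Scr libraries, and the miR-23a KO libraries lay on either side. It fell 1.56-fold (log2 fold change -0.64, SE 0.08, adjusted p = 0.0130, edgeR with Benjamini-Hochberg adjustment). *APOC2* (gene 344) had 5646 and 6505 counts in Scr, 13251 and 4440 with miR-23a KO, and 4987 and 4984 with miR-27a KO. Its miR-27a KO libraries were also below Scr. The adjusted p was 0.0322 in edgeR with Benjamini-Hochberg adjustment, but the fold change of 1.39 was under 1.5 and the gene was not called. The same held for *APOC1* with a log2 fold change of -0.36.

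*APOE* (gene 348) had 26269 and 32168 counts in Scr, 37417 and 14424 with miR-23a KO, and 26450 and 26568 with miR-27a KO. In CPM this was 1826 and 2173, 2846 and 776, and 1602 and 1600, so that the miR-27a KO libraries lay below both Scr libraries after scaling. Its log2 fold change of -0.32 (SE 0.11) was not called (adjusted p = 0.122, edgeR with Benjamini-Hochberg adjustment). *APOB*, the scaffold of very-low-density lipoprotein, had a log2 fold change of -0.07 and *APOA5*, an enhancer of triglyceride hydrolysis, of 0.34. Neither was called. *APOE*, *APOC1*, *APOC4* and *APOC2* share 43.8 kb of chromosome 19 (chr19:44905754-44949565), and the 3 tested had fitted values below 0 in miR-27a KO, with 0 called by edgeR and 0 by DESeq2. These 3 all passed an unadjusted p under 0.05.

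Among the 4 genes of particle assembly and secretion, *MTTP* rose. *MTTP* (gene 4547, chr4:99563761-99623999, plus strand) encodes the large subunit of the microsomal triglyceride transfer protein, without which hepatocytes cannot secrete apoB particles. It had 412 and 594 counts in Scr, 383 and 760 with miR-23a KO, and 1563 and 1634 with miR-27a KO. Both miR-27a KO libraries lay above all 4 others, and the miR-23a KO pair overlapped Scr. The rise was 2.80-fold (log2 fold change 1.49, SE 0.17, adjusted p = 0.0115, edgeR with Benjamini-Hochberg adjustment). In CPM, *MTTP* went from 34.4 ± 8.12 in Scr to 96.5 ± 2.62 in miR-27a KO (SD, n = 2).

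The other assembly genes were not called. *SORT1*, which encodes the sorting receptor sortilin, had 1685 and 1408 counts in Scr and 2552 and 2548 in miR-27a KO. Its adjusted p was 0.0446 in edgeR with Benjamini-Hochberg adjustment, with a fold change of 1.45 that stayed under 1.5. *CES1* (gene 1066), a carboxylesterase of hepatic lipid stores, had 260 and 202 counts in Scr, 151 and 113 with miR-23a KO, and 181 and 172 with miR-27a KO. All 4 KO libraries lay below both Scr libraries. The log2 fold change in miR-27a KO was -0.58 (SE 0.20, adjusted p = 0.124, edgeR with Benjamini-Hochberg adjustment). *TM6SF2*, which takes part in lipid loading, had a log2 fold change of 0.11.

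Among the 3 genes of plasma lipid transfer and esterification, *CETP* and *LCAT* fell. *CETP* (gene 1071, chr16:56961850-56983845, plus strand) encodes the protein that exchanges cholesterol esters of HDL for triglycerides. It had 220 and 60 counts in Scr, 71 and 176 with miR-23a KO, and 12 and 18 with miR-27a KO. Every other library was above the miR-27a KO pair, although the Scr libraries were themselves far apart. It fell 10.6-fold (log2 fold change -3.41, SE 0.74, adjusted p = 0.0424, edgeR with Benjamini-Hochberg adjustment). Without Scr replicate 1 the log2 fold change was -2.15, and without Scr replicate 2 it was -4.07.

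*LCAT* (gene 3931) encodes the enzyme that esterifies cholesterol on HDL. It had 457 and 925 counts in Scr, 1746 and 330 with miR-23a KO, and 242 and 202 with miR-27a KO. Levels were lowest in the miR-27a KO pair, with the miR-23a KO libraries on either side of Scr. It fell 3.52-fold (log2 fold change -1.82, SE 0.34, adjusted p = 0.0312, edgeR with Benjamini-Hochberg adjustment). An exon of *SLC12A4* overlaps *LCAT* on the same strand in GENCODE. The phospholipid transfer gene *PLTP* (gene 5360) had 1352 and 875 counts in Scr, 659 and 742 with miR-23a KO, and 930 and 971 with miR-27a KO. In CPM, *PLTP* stood at 94.0 and 59.1 in Scr and at 56.3 and 58.5 in miR-27a KO, a gap of less than 1 CPM between the nearest libraries. Its log2 fold change of -0.42 (SE 0.22) was not called.

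Of the 3 tested lipases and lipase inhibitors, *ANGPTL8* fell. *ANGPTL8* (gene 55908), whose secreted product limits lipoprotein lipase activity, had 3878 and 3848 counts in Scr, 2720 and 795 with miR-23a KO, and 2232 and 2225 with miR-27a KO. All 4 KO libraries lay below both Scr libraries. In miR-27a KO it fell 1.97-fold (log2 fold change -0.98, SE 0.08, adjusted p = 0.00546, edgeR with Benjamini-Hochberg adjustment). The hepatic lipase gene *LIPC* had a log2 fold change of -0.22, and the lipase inhibitor *ANGPTL4* of -1.41 with an SE of 0.56, which was -0.50 without Scr replicate 1 and -1.96 without Scr replicate 2. Neither was called.

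Among the 4 genes of receptors and their degradation, *VLDLR* and *SCARB1* fell. *VLDLR* (gene 7436, chr9:2621834-2660053, plus strand), the member with 3 miR-27a-3p matches, had 161 and 177 counts in Scr, 98 and 139 with miR-23a KO, and 19 and 17 with miR-27a KO. The miR-27a KO libraries lay far below all others, and the miR-23a KO libraries lay below Scr by less. It fell 10.6-fold in miR-27a KO (log2 fold change -3.41, SE 0.26, adjusted p = 0.00523, edgeR with Benjamini-Hochberg adjustment). This call was made in all 7 alternative fits and with each of the 4 libraries left out. The values of all 3 genes with a miR-27a-3p match were below 0 in miR-27a KO. They were -3.41 for *VLDLR*, -0.67 for *PON3* and -0.42 for *PON2*, of which *PON2* was not called. Most members lay on that side, 22 of the 28 tested, with or without a match. Whether the matches bear on these values was not tested.

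*SCARB1* (gene 949) encodes the HDL receptor SR-BI. It had 11142 and 9991 counts in Scr, 13791 and 9054 with miR-23a KO, and 7838 and 7572 with miR-27a KO. Again the miR-27a KO pair was the lowest of the 6 libraries. It fell 1.56-fold (log2 fold change -0.64, SE 0.10, adjusted p = 0.0214, edgeR with Benjamini-Hochberg adjustment). *LRP1* (gene 4035), a large receptor for remnant particles, had 6770 and 5485 counts in Scr, 3907 and 6514 with miR-23a KO, and 6591 and 6464 with miR-27a KO. In CPM, *LRP1* stood at 471 and 371 in Scr, 297 and 351 with miR-23a KO, and 399 and 389 with miR-27a KO. Its miR-27a KO libraries lay between the Scr libraries, with a log2 fold change of -0.10. *MYLIP*, a ubiquitin ligase that marks receptors of the LDL receptor family such as VLDLR for degradation, had a log2 fold change of -0.24.

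All 4 HDL-associated enzymes and chaperones had fitted values below 0, and 3 fell. *PON1* (gene 5444, chr7:95297676-95324707, minus strand), an HDL-bound esterase that protects lipids from oxidation, had 62 and 111 counts in Scr, 120 and 85 with miR-23a KO, and 11 and 7 with miR-27a KO. The pair from miR-27a KO was below all others. It fell 10.8-fold (log2 fold change -3.43, SE 0.48, adjusted p = 0.0165, edgeR with Benjamini-Hochberg adjustment). *PON3* (gene 5446), its neighbour, had 380 and 418 counts in Scr, 420 and 389 with miR-23a KO, and 258 and 313 with miR-27a KO. Here too the miR-27a KO pair was lowest. It fell 1.59-fold (log2 fold change -0.67, SE 0.15, adjusted p = 0.0480, edgeR with Benjamini-Hochberg adjustment). *PON1*, *PON3* and *PON2* lie in this order within 138 kb of chromosome 7.

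*CLU* (gene 1191) encodes clusterin, a secreted chaperone also found on HDL. It had 1394 and 1838 counts in Scr, 1813 and 37 with miR-23a KO, and 722 and 1072 with miR-27a KO. Both libraries of miR-27a KO were under both Scr libraries, while a single miR-23a KO library was far below all others. It fell 2.05-fold in miR-27a KO (log2 fold change -1.03, SE 0.22, adjusted p = 0.0394, edgeR with Benjamini-Hochberg adjustment). The plot of the 12 called genes by library shows these values beside those of the other groups.

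**Figure D4:**
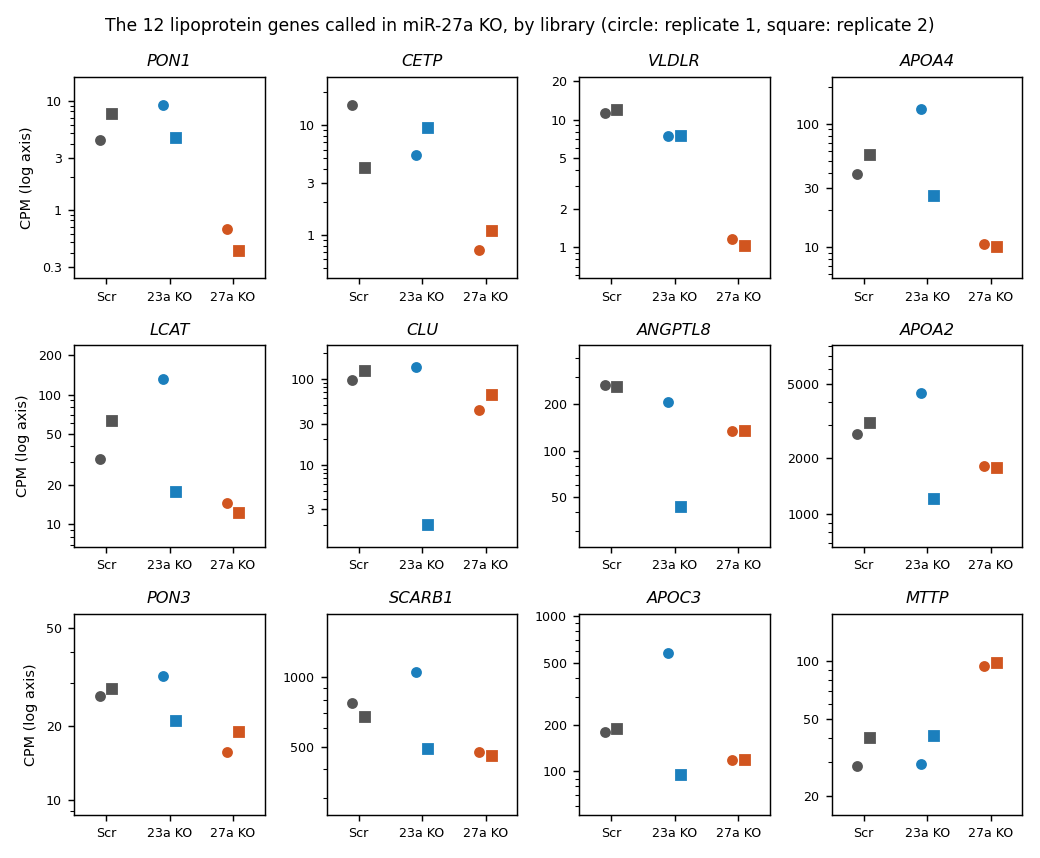
CPM (y axes, log scale, TMM-scaled) of the 12 lipoprotein genes called in miR-27a KO against Scr, for each library of each group (circle: replicate 1, square: replicate 2). The miR-27a KO libraries lie together below Scr in 11 panels and above it for *MTTP*, and the miR-23a KO libraries lie far apart for *CLU*, *LCAT* and *APOC3*.

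Many of these calls depended on the fit and on single libraries. With no filter on low counts, *CETP*, *CLU*, *LCAT* and *PON3* were lost. When all 6 libraries were fitted at once, with the wide miR-23a KO spread included, edgeR called *VLDLR* alone among the members, beside 0.431% of genes lower. The members' median log2 fold change was -0.442 in that fit and -0.445 in the reported one, so calls were lost while the median hardly moved. With GC content and length corrected, *APOC3*, *CLU*, *LCAT* and *SCARB1* were no longer called. *CLU* (log2 fold change -0.93, adjusted p = 0.0504) and *LCAT* (-1.57, adjusted p = 0.0547) then just missed the threshold in edgeR with Benjamini-Hochberg adjustment, while *APOC3* (-0.50) and *SCARB1* (-0.39) fell short of 1.5-fold. Without miR-27a KO replicate 1, 5 members were called lower, beside 2.19% of genes, with *APOA2*, *APOC3*, *CETP*, *CLU*, *PON3* and *SCARB1* lost. Without miR-27a KO replicate 2, 4 were called lower, beside 1.76%, with *APOA2*, *APOC3*, *CETP*, *LCAT*, *PON1*, *PON3* and *SCARB1* lost. Without Scr replicate 1, *SCARB1* was lost and *SORT1* (log2 fold change 0.70) was called higher, for 10 members lower and 2 higher beside 8.73% and 7.25% of genes. Without Scr replicate 2, *ANGPTL4* (-1.96), *CES1* (-0.76) and *PLTP* (-0.71) were called lower as well, and *APOA1* (0.62) and *APOB* (0.59) higher, for 14 members lower and 3 higher beside 12.6% and 13.3%. *MTTP*, *VLDLR*, *APOA4* and *ANGPTL8* were called with each of these libraries left out.

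Promoters were read because 12 members were called in the same libraries. Windows from 250 bases before to 50 after a start were taken from RefSeq (GRCh38.p14) and matched 23 of the 31 members (29 windows), 8 of the 12 called members among them. The members not matched were *APOA1*, *APOB*, *APOC3*, *LPA*, *CES1*, *LCAT*, *SCARB1* and *CLU*. Both strands were searched for 5 motifs chosen after the values were seen. AGGTCA is the core bound by many nuclear receptors. It was in 8 of the 29 member windows (27.6%, from 7 members) and in 13.8% of all 35116 windows. Those members were *MTTP* and *PON3*, which were called, and *APOA5*, *APOC2*, *APOC4*, *LIPC* and *SORT1*, which were not. CAAGGNCA, the longer form bound by receptors such as NR5A2, was in 3 member windows (10.3%; *APOA2*, *APOC2* and *LIPC*) and 5.28% of all, and where N is T it contains AGGTCA. The HNF1 motif, TTAAT and ATTAA with any base between them and so the same on both strands, was in 2 member windows (6.90%), of *LIPC* and *MTTP*, and in 0.094% of all. TATAAA was in 5 member windows (17.2%; *ANGPTL4*, *APOA5*, *APOC2*, *MTTP* and *PLTP*) and 11.5% of all, and the GC box GGGCGG in 15 member windows (51.7%, from 14 members) and 45.0% of all. Windows of the same gene can overlap. A match describes letters in the window and does not show that a factor binds.

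The windows of 3 members with large changes are shown with these motifs in capitals, on the strand of the gene. Not every called member held one: the windows of *APOA4* and *ANGPTL8*, not shown, held none of these motifs. That of *VLDLR*, also not shown, held GC boxes only. The window of the downstream start of *MTTP* (chr4:99574574-99574873, plus strand) held TTAATCATTAA at position -109 from the start, TGACCT, which is AGGTCA on the other strand, at -50, and TATAAA on the other strand at -227. The window of its upstream start (chr4:99563880-99564179, plus strand), not shown, held GC boxes at -108 and -7 and none of the other motifs. The window of *CETP* (chr16:56961700-56961999, plus strand) held the GC box at -39. The window of *PON1* (chr7:95324483-95324782, minus strand) held overlapping GC boxes at -54 and -49.
MTTP: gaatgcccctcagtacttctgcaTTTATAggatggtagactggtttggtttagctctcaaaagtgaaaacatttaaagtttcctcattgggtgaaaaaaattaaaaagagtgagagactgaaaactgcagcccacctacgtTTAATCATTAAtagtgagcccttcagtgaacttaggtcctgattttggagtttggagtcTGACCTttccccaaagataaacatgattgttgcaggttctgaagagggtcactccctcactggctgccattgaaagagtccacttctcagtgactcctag
CETP: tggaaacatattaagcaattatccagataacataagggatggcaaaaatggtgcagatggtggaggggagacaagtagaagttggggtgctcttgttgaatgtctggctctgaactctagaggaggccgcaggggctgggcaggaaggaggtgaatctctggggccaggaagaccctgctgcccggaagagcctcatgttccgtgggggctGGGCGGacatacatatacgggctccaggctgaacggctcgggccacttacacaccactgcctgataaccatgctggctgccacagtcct
PON1: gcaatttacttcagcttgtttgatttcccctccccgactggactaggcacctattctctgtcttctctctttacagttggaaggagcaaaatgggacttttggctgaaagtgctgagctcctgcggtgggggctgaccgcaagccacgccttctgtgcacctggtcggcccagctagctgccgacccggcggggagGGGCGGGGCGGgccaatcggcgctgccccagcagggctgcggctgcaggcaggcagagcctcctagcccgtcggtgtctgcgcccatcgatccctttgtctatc

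Other genes of lipoprotein metabolism were read from 6 lists that hold none of the 31 members and were also chosen with earlier results known. Of 95 genes listed, 91 were in the table and 81 were tested. In miR-27a KO, 5 of the 81 (6.17%) were called higher, beside 3.52% of all genes tested, and 7 (8.64%) lower, beside 6.74%. Their median log2 fold change was -0.18. *LPL*, *GPIHBP1*, *PLA2G7* and *ABCG1* were not in the table.

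Among 20 transcription factors of lipoprotein genes, 1 was called higher and 3 lower in miR-27a KO. *NR5A2* (gene 2494), a nuclear receptor that activates apolipoprotein and *CETP* transcription, had 61 and 118 counts in Scr, 130 and 222 with miR-23a KO, and 0 and 2 with miR-27a KO. It was near absent from both miR-27a KO libraries and present in the other 4. The ratio of Scr to miR-27a KO was 102 (95% counting interval 27.7 to 845, adjusted p = 0.0141, edgeR with Benjamini-Hochberg adjustment). *NR0B2*, which encodes the repressor SHP, fell by 1.01 on the log2 scale (adjusted p = 0.00875, edgeR with Benjamini-Hochberg adjustment). *CREB3L3*, a liver activator of triglyceride clearance genes, fell by 1.39 on the log2 scale (adjusted p = 0.00857, edgeR with Benjamini-Hochberg adjustment). *PPARGC1A*, a coactivator of hepatic metabolic genes, had 16 and 44 counts in Scr, 0 and 0 with miR-23a KO, and 162 and 153 with miR-27a KO. It rose in miR-27a KO, with a log2 fold change of 2.21 (adjusted p = 0.0374, edgeR with Benjamini-Hochberg adjustment).

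Each remaining list held fewer calls in number, although some of these lists were shorter and held a higher share. Of 18 tested receptors and uptake genes, *SORL1* rose (log2 fold change 0.74) while the scavenger receptor *CD36* (-1.57) and the heparan sulfate proteoglycan *SDC1* (-0.85) fell. Of 7 tested lipases and lipase regulators, the proprotein convertase *PCSK5* rose (2.96) and *FURIN*, another convertase, fell (-1.28). Of 10 tested apolipoproteins and particle proteins outside the 31, *APOL2* (1.36) and *APOL3* (2.06) rose and the HDL protein *SAA4* fell (-2.99). Among 18 tested genes that assemble and secrete apoB particles, 0 were called by edgeR in miR-27a KO, while 7 had an unadjusted p under 0.05 and DESeq2 called *ACSL3*, an acyl-CoA synthetase. Among 8 of cholesterol efflux, 0 were called by edgeR and 0 by DESeq2, and *STARD3* had an unadjusted p under 0.05.

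In miR-23a KO cells, 0 of the 28 tested lipoprotein genes and 0 of 13786 genes in all were called by edgeR (0.00%). At an unadjusted p under 0.05, 0 members and 332 genes (2.41%) passed, and DESeq2 called 0 of 31 members and 63 of 19391 genes (0.325%). The median log2 fold change of the members was 0.11, beside 0.16 over all genes tested. Above 0 were 18 members and below it 10, while 63.0% of all genes tested were above 0. SE ran from 0.44 to 1.26. Without miR-23a KO replicate 1 the members' median was -0.672, and without replicate 2 it was 0.272. The miR-23a KO pair was under the Scr pair without overlap for 5 members, *ANGPTL8*, *CES1*, *PLTP*, *VLDLR* and *LRP1*, beside 14.9% of all genes, and over it for 0, beside 8.87%.

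None of these 5 genes passed the test. *ANGPTL8*, whose counts are given above, had a log2 fold change of -1.06 (SE 0.67), which became -2.59 when miR-23a KO replicate 1 was left out and -0.36 when replicate 2 was. *CES1* had -0.81 (SE 0.56). *PLTP* had -0.71 (SE 0.46). *VLDLR* stood at 11.6 ± 0.540 CPM in Scr and 7.47 ± 0.0181 in miR-23a KO (SD, n = 2), a lower level that both libraries shared, with a log2 fold change of -0.56 (SE 0.54). *LRP1* had -0.30 (SE 0.46). All 5 had an adjusted p of 1.00 in edgeR with Benjamini-Hochberg adjustment.

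The abundant apolipoproteins lay on both sides of Scr in this group. *APOA1*, *APOA2*, *APOC2*, *APOC3* and *APOE* were each above both Scr libraries in miR-23a KO replicate 1 and below both in replicate 2, as the map of libraries shows. *APOC3* had a fitted log2 fold change of 0.89 (SE 0.73), which was -0.91 without replicate 1 and 1.66 without replicate 2. *CLU* had -0.66 (SE 1.26), which was -5.75 without replicate 1 and 0.32 without replicate 2. Without replicate 1, 5 members were called lower (*ANGPTL8*, *APOA2*, *APOC3*, *APOE* and *CLU*), beside 1.78% of genes, and 0 higher, beside 2.34%. Without replicate 2, 8 were called higher (*APOA1*, *APOA4*, *APOA5*, *APOC1*, *APOC2*, *APOC3*, *APOM* and *LCAT*), beside 1697 of all 14136 genes tested, and *SORT1* lower, beside 933. The direction of most apolipoprotein genes in miR-23a KO thus turned on which library was read. Of the 81 tested genes of the other lipoprotein lists, 0 were called by edgeR, 5 had an unadjusted p under 0.05, DESeq2 called 2 (*APOL1* and *PPARGC1A*), and their median was 0.01.

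**Figure D5:**
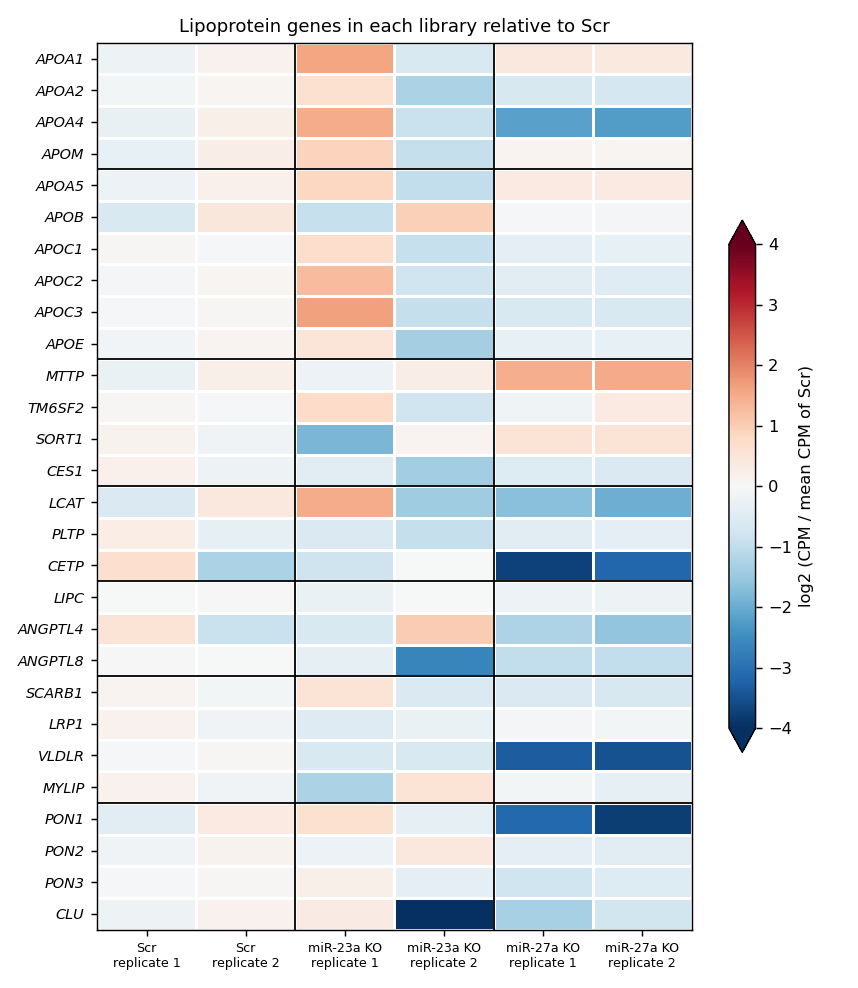
Log2 ratio of each library's CPM to the mean CPM of Scr for the 28 tested lipoprotein genes (y axis, grouped by role) in the 6 libraries (x axis); the colour scale ends at 4 in each direction. The miR-23a KO libraries differ in colour for most apolipoproteins, while the miR-27a KO libraries are alike.

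The KO groups were also compared with each other, which tests the difference between them without the Scr libraries that both comparisons above share. No member passed: 0 of 28, and 0 of 13841 genes in all (0.00%), were called by edgeR, and the smallest adjusted p of a member was 0.136 in edgeR with Benjamini-Hochberg adjustment. An unadjusted p under 0.05 was reached by 5 members, *PON1*, *CETP*, *VLDLR* and *APOA4* with higher values in miR-23a KO and *MTTP* with lower, beside 8.72% of genes. DESeq2 called 5 of 31 members, *APOA4*, *CETP*, *LCAT*, *PON1* and *VLDLR*, beside 2.45% of genes. For 9 members the miR-23a KO pair was over the miR-27a KO pair without overlap (18.7% of all genes), and for 4 it was under it (20.8%). The median log2 fold change of miR-23a KO over miR-27a KO was 0.42 for the members and 0.11 for all genes. Without miR-23a KO replicate 1 the members' median was -0.333, and without replicate 2 it was 0.836. With a block for the replicate number it was 0.085.

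With no library of the KO groups left out, the 5 largest differences between them were in genes called in miR-27a KO against Scr. *PON1* was at 3.64 (SE 0.64, adjusted p = 0.158), *CETP* at 3.03 (SE 0.56, adjusted p = 0.168) and *APOA4* at 2.95 (SE 0.85, adjusted p = 0.381) in edgeR with Benjamini-Hochberg adjustment. *VLDLR* was at 2.78 (SE 0.45, adjusted p = 0.136) and *LCAT* at 2.49 (SE 0.98, adjusted p = 0.590) in edgeR with Benjamini-Hochberg adjustment. For these 5 genes the libraries of the KO groups did not overlap, with both miR-27a KO libraries lowest. Without miR-23a KO replicate 1, *APOA4* was at 1.32, *LCAT* at 0.40 and *PON1* at 3.05, and without replicate 2 at 3.70, 3.31 and 4.05. *VLDLR* stayed at 2.77 both times. Without replicate 1 these genes were no longer the 5 largest, with *CLU* at -4.77 and *ANGPTL4* at 2.43. *MTTP* was at -1.46 (SE 0.35, adjusted p = 0.273, edgeR with Benjamini-Hochberg adjustment). The miR-27a KO libraries enter both this comparison and the one with Scr. Without miR-23a KO replicate 1, 8 of 29 members were called higher in miR-23a KO, beside 19.3% of genes, and 8 lower, beside 14.9%. Without miR-23a KO replicate 2, 16 of 29 were called higher, beside 25.2%, and 4 lower, beside 26.2%. Of the 81 tested genes of the other lists, 0 were called by edgeR, 16 had an unadjusted p under 0.05 and DESeq2 called 10, with a median of 0.12.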

How the data were processed

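The values as deposited by the authors, in columns named FPKM, were taken to be estimated counts per gene. They were read so because 34.5% to 40.8% of the values above 0 are exact whole numbers. Columns not used: 0. The submitters' notes name HISAT, StringTie, Cufflinks and GATK without role or version, and the genome build is not given in the sources used here. Counts were rounded. In edgeR 4.0.16 (R 4.3.3), the 2 groups of a comparison were fitted without the third (filterByExpr, TMM, glmQLFit, glmQLFTest), with Benjamini-Hochberg adjustment over every gene tested. Total counts lay between 14405250 and 16515261. Lengths, GC content and 3'-UTRs came from GENCODE release 29, which matched 17620 genes (88.0%).

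The 31 genes and the lists were chosen with earlier results of these data known. Counts in every library are printed for members called in any comparison, for up to 5 members per comparison with the largest fitted change and no overlap between groups, and for the 5 most abundant per length in Scr. *SORT1*, *APOB* and single values of other members were added after their values were seen. Genes of the other lists are named where called, up to 4 per list and direction.

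As alternatives, each fit was repeated with DESeq2 1.42.0, with median-ratio scaling, with all 6 libraries in 1 fit, with no filter on low counts, with loess correction for GC content and length (span 0.5, degree 2), with a block for the replicate number, with block and correction together, and with each library left out. A library left alone in its group is assumed to vary like the other group. The pairing of equally numbered replicates was checked: over 14163 genes, their deviations correlated by 0.149 between miR-23a KO and Scr, 0.0103 between miR-27a KO and Scr, and 0.0173 between the KO groups, so replicate numbers were not used as a block in the reported fits. The workflow was tested on simulated data.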

Additional observations from a re-analysis of the deposited data

How the results depend on the processing

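With 2 libraries per group, each count of calls depends on the spread between libraries. For miR-27a KO against Scr, 173 of 196 fitted values of the 28 tested members under other settings kept their direction and side of the threshold, 21 kept their direction but were no longer called, 1 kept its direction and was newly called, and 1 changed sign without a call. With no filter on low counts, 304 genes were called higher and 588 lower, and 7 members lower. In a fit of all 6 libraries, 3 genes were higher and 61 lower, with 0 members higher and 1 lower. With GC content and length corrected, 7 members were lower, beside 5.83% of genes, and 1 higher, beside 4.6%. With a replicate block as well, 9 members were lower, beside 5.99% of genes, and 2 higher, beside 4.83%. With each library left out, 82 to 1908 genes were higher and 252 to 1808 lower, and 1 to 3 members higher and 4 to 14 lower. The log2 fold change of *APOB* then ranged from -0.51 to 0.59.

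For miR-23a KO against Scr, DESeq2 called 5 genes higher and 58 lower, the fit without a filter 10 lower, the fit of all 6 libraries 3 lower, GC content and length correction 3 lower, the replicate block 7 higher and 62 lower, and the block with that correction 3 higher and 24 lower. With each library left out, 0 to 1697 genes were higher and 4 to 933 lower, and 0 to 8 members higher and 0 to 5 lower. The log2 fold change then ranged from -1.21 to 0.63 for *APOA2* and from -0.91 to 1.66 for *APOC3*.

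For miR-23a KO against miR-27a KO, DESeq2 called 260 genes higher and 216 lower with 5 members higher, the fit of all 6 libraries 109 and 109 with 1 member higher, GC content and length correction 134 and 165, the replicate block 211 and 189 with 4 members higher, and the block with that correction 432 and 508 with 5 members higher and 2 lower. With each library left out, 25 to 3584 genes were higher and 47 to 3719 lower, and 0 to 16 members higher and 0 to 8 lower. The log2 fold change then ranged from -1.05 to 1.18 for *APOA1*, from -1.05 to 0.83 for *APOE*, from -1.66 to 0.63 for *ANGPTL8* and from -4.77 to 1.35 for *CLU*. It ranged from -0.86 to 1.02 for *APOB*, from -1.07 to 0.84 for *APOM* and from -1.02 to 0.76 for *MYLIP*. Causes of these shifts were not tested. At this depth, 3 counts are 0.161 to 0.228 CPM.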
